A study of Mus musculus with 8 samples.

Results

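The newborn regions shared by lens epithelium and lens fibers are the stretches of mouse chromatin that were called open at P0.5 in both tissues and at E14.5 in neither. The open regions of the 4 groups were merged where they lay within 10 bp of each other, which gave 185247 regions on chromosomes 1 to 19 and X. A merged region was a member if it held a peak of the P0.5 epithelium list and of the P0.5 fiber list and no peak of either E14.5 list. There were 644 members, 0.348% of all merged regions (95% Wilson interval 0.322 to 0.375). They made up 2.99% of the 21559 regions that both P0.5 lists called and 1.97% of the 32635 regions that a P0.5 list and no E14.5 list called. The mirrored group, called in both E14.5 lists and in neither P0.5 list, held 21158 regions, 11.4% of all merged regions. The lists differed in size, with 100003 peaks in epithelium and 123743 in fibers at E14.5 and 58592 and 62995 at P0.5. With lists of equal size there were 1263 members. Members were thus chosen by the presence of peak calls at a q value of 0.05, and their calls and peak strength are given as a description with no test.

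The study measured open chromatin by ATAC-seq in CD1 mice, an outbred stock, with no genetic change and no treatment. The 4 groups were lens epithelium and lens fibers, separated by microdissection from several pooled lenses, at E14.5 and at P0.5, with 2 libraries in each. The deposited lists are named as pooled, 1 for each group, so that no value has a spread between libraries. In such bulk lists, fewer cells with an open region and less opening per cell cannot be told apart. Of 28 lens marker genes, 25 had a P0.5 epithelium peak and 27 a P0.5 fiber peak at the promoter or in the gene body, where 72.0% and 70.7% of 21000 protein-coding genes had one. None of the 28 had a member, and 1.98% of all protein-coding genes had one, so that 0 of 28 does not set the markers apart.

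In ATAC-seq, the transposase Tn5 cuts DNA that is not covered by nucleosomes and leaves adaptors at the cuts, so that fragments pile up at promoters, enhancers and other open sites. The lens is built of a single layer of epithelial cells, which divide and supply new cells at the equator, and of fiber cells, which leave the cell cycle, elongate, fill with crystallins and lose their nuclei and other organelles. Both cell types descend from the same lens vesicle, and around birth fiber formation continues while the vessels that surround the embryonic lens begin to regress.

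The sequences that follow show what kinds of DNA the members held. All are the forward strand of GRCm38 (mm10), read 5′ to 3′, and the whole merged region is printed. The first set holds 3 of the members with the highest ranks in both P0.5 lists, with letters that the reference marks as repeats in capitals. They lie at chr14:19415726-19415846, at chr6:49236460-49236565 (7356 bp from Tra2a, which encodes a splicing factor) and at chr10:58231863-58231993 (next to the predicted gene Gm4981).

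chromosome 14: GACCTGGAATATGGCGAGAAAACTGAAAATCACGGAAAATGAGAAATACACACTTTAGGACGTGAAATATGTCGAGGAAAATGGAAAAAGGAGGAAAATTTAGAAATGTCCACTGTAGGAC
Tra2a: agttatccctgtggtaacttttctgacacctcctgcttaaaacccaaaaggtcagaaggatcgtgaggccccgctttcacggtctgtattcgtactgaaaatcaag
Gm4981: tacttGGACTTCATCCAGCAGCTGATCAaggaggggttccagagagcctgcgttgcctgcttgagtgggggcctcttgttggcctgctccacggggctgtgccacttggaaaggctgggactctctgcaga

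The chromosome 14 member was a repeat from end to end (100%), and its letters are those of the mouse major satellite, the repeat of pericentromeric heterochromatin. The Tra2a member had no letter marked as a repeat. The next sequence, chr17:30609691-30609939 at Glo1, the gene of glyoxalase 1, which detoxifies methylglyoxal, stands for a stretch of chromosome 17 that held many members. Its capitals again mark repeats.

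Glo1: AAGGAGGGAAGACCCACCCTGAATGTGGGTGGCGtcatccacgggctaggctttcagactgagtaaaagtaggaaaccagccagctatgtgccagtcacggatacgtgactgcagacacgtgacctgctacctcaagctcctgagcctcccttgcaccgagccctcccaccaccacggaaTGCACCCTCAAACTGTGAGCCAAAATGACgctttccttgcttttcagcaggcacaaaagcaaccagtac

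The last set is shown because the summits of many members lay in coding exons. These are the members of Notch1 at chr2:26478090-26478266 and Maml1 at chr11:50258330-50258580, and their capitals mark coding bases. Both genes are transcribed from the reverse strand, so the printed letters are the complement of the coding strand.

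Notch1: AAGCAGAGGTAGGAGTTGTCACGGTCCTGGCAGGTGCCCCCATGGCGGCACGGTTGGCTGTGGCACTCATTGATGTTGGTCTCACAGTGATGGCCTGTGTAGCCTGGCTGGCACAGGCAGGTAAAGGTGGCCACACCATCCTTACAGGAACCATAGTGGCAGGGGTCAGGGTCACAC
Maml1: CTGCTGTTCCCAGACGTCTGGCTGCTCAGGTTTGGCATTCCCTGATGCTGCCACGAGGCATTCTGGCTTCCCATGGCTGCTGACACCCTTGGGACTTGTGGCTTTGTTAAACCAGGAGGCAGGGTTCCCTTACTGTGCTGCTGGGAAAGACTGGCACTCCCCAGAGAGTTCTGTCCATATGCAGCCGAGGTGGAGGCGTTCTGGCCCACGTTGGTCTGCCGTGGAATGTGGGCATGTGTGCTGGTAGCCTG

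Most members were weak peaks. Fold enrichment in each list rose in whole steps over a single genome-wide background (100% of peaks), so the number of pooled fragments at each summit could be recovered. For epithelium, the background was 1.61 fragments at E14.5 and 1.36 at P0.5, and for fibers it was 2.37 and 1.16. At the summits of the members, P0.5 epithelium had from 7 to 59 fragments with a median of 9, and P0.5 fibers had from 6 to 80 with a median of 8. The authors' fold enrichment had a median of 4.25 in epithelium and 4.17 in fibers. By counting error alone, 9 fragments carry an exact Poisson 95% interval of 4.12 to 17.1, and 8 fragments one of 3.45 to 15.8. There were at most 12 fragments at 598 of the epithelium summits (92.9%) and at 629 of the fiber summits (97.7%), and more than 20 at 7 and 2.

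The members lay lower in the epithelium list than in the fiber list. Ordered by p value, 46 members stood in the upper 50% of the epithelium list and 437 in that of the fiber list, 34 in both. Tied peaks took the best place of their tie, so these counts are upper limits. In the fiber list, the tie at 8 fragments, the median of that list, began at 48.9% and the next tie at 69.2%. In fibers, 395 members had at most 8 fragments. In the epithelium list, the tie at 13 fragments began at 47.1% and the next at 52.3%. Only 1 member, the satellite on chromosome 14, was in the upper 10% of both. With a stricter q value under 0.001, 418 members passed in epithelium, 249 in fibers, 166 in both and 143 in neither. The 166 were 0.0896% of all merged regions.

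The peaks of both tissues overlapped at most members, though often in part. The strongest peaks of both tissues overlapped by at least 1 bp at 617 of 644 members, and at the other 27 they were joined across a gap within the merging distance or by a further peak. The overlap had a median of 94 bp, and at 255 members it covered at least 50% of both peaks. The distance between the epithelium and the fiber summit had a median of 72.5 bp and was within 50 bp at 245 members. Members were 106 to 1035 bp wide with a median of 254 bp, which is close to the median of all other merged regions (241 bp). Regions called only in P0.5 epithelium had a median width of 122.5 bp and those called only in P0.5 fibers one of 146 bp. The 3 widest members were at Btbd9 (chr17:30464122-30465156), Sstr3 (chr15:78539413-78540267) and Ticrr (chr7:79695364-79696066).

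**Figure D1:**
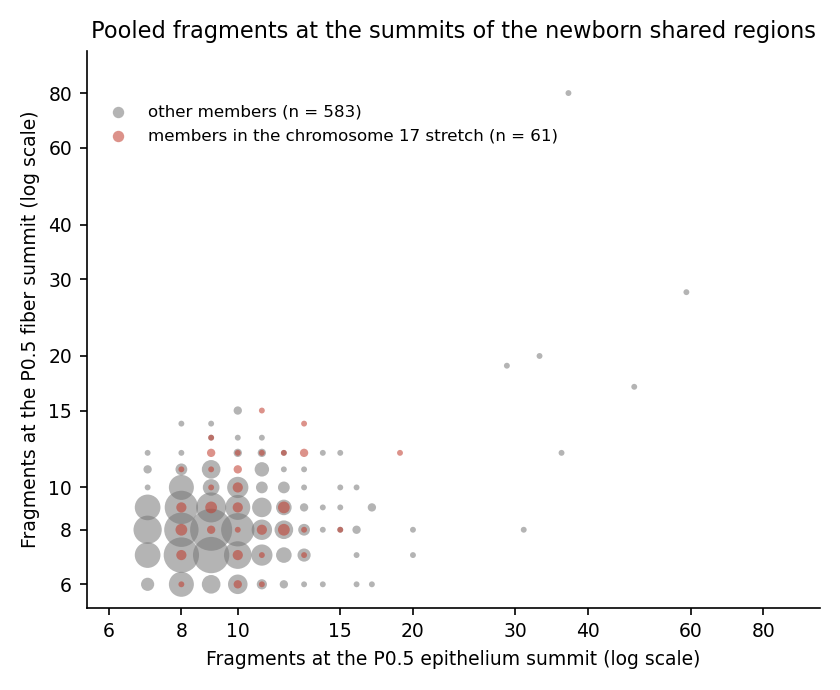
Pooled fragments at the P0.5 epithelium summit (horizontal, log scale) and at the P0.5 fiber summit (vertical, log scale) of the 644 members, where the size of a point gives the number of members at that pair of values. The 61 members of the chromosome 17 stretch are red and the other 583 grey. Most members sit at 12 fragments or fewer on both axes, and 7 lie above 20 fragments in epithelium.

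The plot of fragments shows how close the group lay to the calling limits. At P0.5, the lowest number that was called was 7 fragments for epithelium and 6 for fibers. The 57 weakest members tied at a q value of 0.0469, set by 6 fragments in fibers, and Nfix was among their genes. Regions just outside the limit are not listed, so their values are not known. A region without a call at E14.5 could still hold up to 6 fragments in epithelium (3.73 times background) and 7 in fibers (2.95 times background). Scaled to background, the members' P0.5 level was a median of 1.78 times that of 6 E14.5 fragments in epithelium. In fibers it was 2.34 times that of 7. The calling limits and backgrounds alone put these ratios above 1 at every member (lowest 1.38 and 1.76), so they do not measure a rise from E14.5. The lists therefore do not show that a member was closed at E14.5, only that it was not called.

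Many members lay near a region that was open at E14.5. The distance to the nearest E14.5 peak had a median of 1309 bp and ran from 13 to 649842 bp. At 279 members (43.3%) it was within 1000 bp, against 31.7% of regions called only in P0.5 epithelium and 34.1% of those called only in P0.5 fibers. These shares differed by 11.6 and 9.19 percentage points. They are a description, because the E14.5 lists also defined the groups. Only 30 members had no E14.5 peak within 50 kb. Every interval for a share (Wilson, 95%) or a difference (Newcombe, 95%) here takes regions as independent and covers counting error only.

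The members that ranked highest in both lists included repeats, predicted genes and regions outside genes. By the worse of the P0.5 ranks, 22 members filled the first 20 places, since 7 tied at the last. Of these, 10 lay in gene bodies, 7 within 50 kb of a gene and 5 farther away. The satellite on chromosome 14 had 59 fragments in epithelium and 28 in fibers, a fold enrichment of 25.5 and 13.4. A second member outside genes, chr2:98663805-98664068, had 48 and 17 fragments and was 73.5% repeat. The member beside Tra2a had 37 fragments in epithelium and 80 in fibers and was the strongest in fibers by a wide margin (37.5-fold). Its letters resemble a large ribosomal RNA, but a match was not computed. The Gm4981 member had 33 and 20 fragments. A member beside Gm40035, chr2:181931230-181931342, had 29 and 19, and one 1358 bp from Trip10, which encodes a Cdc42-interacting protein, had 36 and 12 (chr17:57265055-57265412).

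Below these 6, the values fell quickly. The widest member, in Btbd9, had 19 fragments in epithelium and 12 in fibers. The member near Hsf2bp, a gene of meiotic recombination, had 17 and 9. A member in Itln1, which encodes the lectin intelectin, had 15 and 12, one at Rubcnl had 16 and 10, and one at Nxpe5 had 14 and 9. The 7 tied members had 13 fragments in epithelium and lay near Hjurp (9144 bp away) and in Efcab6, Btbd9, Glo1, Glp1r, Mgme1 and Impdh1, with 9 to 14 in fibers. Hjurp encodes the chaperone that deposits the centromeric histone, Mgme1 a mitochondrial exonuclease and Impdh1 an enzyme of guanine nucleotide synthesis.

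Repeats were a small part of the members. Soft-masked repeats filled at least 50% of 24 members (3.73%) and of 2.83% of all other regions, a difference of 0.895 points (−0.317 to 2.66). For the 166 members with a q value under 0.001 in both P0.5 lists it was 3.80 points (0.908 to 8.64). The share of all members was higher than that of the mirrored E14.5 group by 1.91 points (0.683 to 3.67) and lower than that of regions called only in P0.5 fibers (−1.90 points, −3.15 to −0.12), the latter with an interval that included 0 without the chromosome 17 stretch (−1.69, −3.02 to 0.24). Of the 22 highest members, 4 were such repeats. For a count chosen after the data were seen, the 32 bases at each summit were matched to the whole genome. They had more than 1 copy at 6 members (0.932%) and at 0.570% of other regions, a difference of 0.362 points (−0.143 to 1.45), and at 5 of the 166 members with a q value under 0.001 in both P0.5 lists (3.01%, 1.29 to 6.86). The 6 included the members at Tra2a (2 copies), Gm40035 (180 copies) and chrX:170758213-170758447 (1823 copies). Only exact copies in the reference were counted, and the satellite on chromosome 14 and the repeat at chr2:98663805-98664068 had 1 copy each by this count, so that it misses diverged repeats. Whether the longer read pairs over such copies could be assigned to a single place was not measured. The methods state a removal of blacklisted regions from the study's own merged peak set, but the lists used here were not compared with a blacklist, so that some of these members may lie in blacklisted regions. The part of multiply placed reads in these values was not tested.

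A single stretch of chromosome 17 held 61 of the 644 members (9.47%). It ran from 30452417 to 30919607, a length of 467 kb, over Btbd9, Glo1, Dnah8 and Glp1r. Dnah8, which encodes a dynein heavy chain of cilia and flagella, had 24 members, Btbd9 had 17, Glp1r, the receptor of glucagon-like peptide 1, had 14, and Glo1 had 6. Of the 249 merged regions inside, 24.5% were members, 76 were called only in P0.5 epithelium and 91 only in P0.5 fibers. The stretch was chosen after the data were seen. Its ends are its outermost members, chained across gaps of at most 50 kb.

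Peaks at P0.5 were crowded there in both tissues, and at E14.5 they were sparse. Epithelium had 14 peaks inside at E14.5 and 159 at P0.5, and fibers had 16 and 165. In the 500 kb before the stretch, epithelium had 39 and 21 peaks and fibers 100 and 20, and in the 500 kb after it epithelium had 37 and 19 and fibers 40 and 21, with 0 members in either flank. Over the 1946 windows of 500 kb with at least 20 P0.5 peaks, the window that holds most of the stretch had 287 P0.5 and 26 E14.5 peaks, and the next highest ratio was 37 to 21. Only 56 of these windows had more P0.5 than E14.5 peaks.

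**Figure D2:**
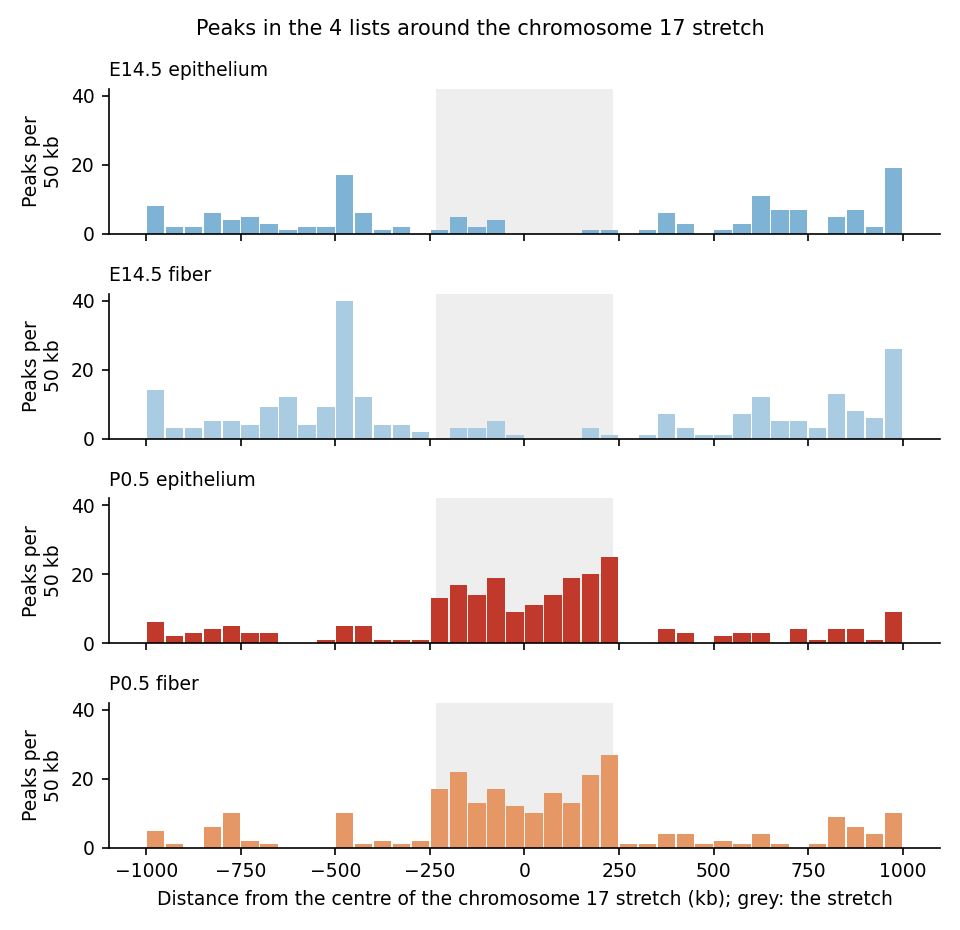
Number of peaks per 50 kb in each of the 4 lists against the distance in kb from the centre of the chromosome 17 stretch, which is shaded grey. The P0.5 lists rise inside the stretch to 159 and 165 peaks in all, the E14.5 lists hold 14 and 16 there, and the flanks show no such rise.

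As the plot of peaks around the stretch shows, the rise stopped at its edges, which were themselves set by the members. The 61 members inside had 8 to 19 fragments in epithelium (median 10) and 6 to 15 in fibers (median 9). The 6 Glo1 members had from 8 to 13 fragments in epithelium and from 6 to 14 in fibers, and the printed one was the highest in both. For regions called at both stages, the levels could also be compared. In epithelium, the ratio of the P0.5 to the E14.5 level, each scaled to its background, had a median of 1.17 over 13 regions inside (quartiles 0.917 and 1.31) and 0.657 over 40249 elsewhere (0.476 and 0.923). In fibers it had a median of 0.838 over 7 regions inside (quartiles 0.470 and 1.60) and 0.443 over 29549 elsewhere (0.255 and 0.911). The ratio was above 1 at 9 of the 13 regions inside and at 19.9% of those elsewhere in epithelium, and at 3 of the 7 and 22.4% in fibers. The ranges between quartiles inside and elsewhere overlapped in both tissues. As background, a segment with these genes is known to vary in copy number among laboratory mice. Copy number was not measured here, and its part in the calls was not tested. Because 1 background served the whole genome, a regional difference in fragment number was not removed before calling.

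Smaller chains of members lay elsewhere. Within 50 kb of each other, 7 members lay in or beside Itln1 and Cd244a (chr1:171528821-171578155) and 4 in Mroh2a or beside Hjurp (chr1:88231769-88287168). The first span held 23 and 31 peaks in E14.5 epithelium and fibers and 38 and 40 at P0.5, so that, unlike chromosome 17, it was also densely called at E14.5. By chromosome, members were 1.04% of merged regions on chromosome 17 (0.343% without the stretch), 0.556% on chromosome 15 and 0.503% on chromosome 7. They were 0.112% on chromosome 3, 0.111% on chromosome 13 and 0.052% on X, where there was 1 member among 1910 regions.

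Members lay in gene bodies more often and at promoters less often than the rest. A promoter, taken as 2 kb around a transcription start site, was touched by 68 members (10.6%) and by 16.4% of all other regions, a difference of −5.88 points (−8.03 to −3.26). Of the remaining members, 449 (69.7%) lay in a gene body, 96 (14.9%) within 50 kb of one and 31 (4.81%) farther away, against 54.95%, 20.9% and 7.68% of all other regions. The gene body share was 14.8 points above that of other regions (11.1 to 18.2), 14.8 points above that of regions called only in P0.5 epithelium and 9.55 above those only in P0.5 fibers. Against the same groups, the promoter share was higher by 3.38 points (1.16 to 6.05) and by 1.67 points (−0.50 to 4.31), and among regions of weak q values (0.001 or above) it turned to −0.807 and −1.40 points, with intervals that included 0. Against the mirrored E14.5 group, the promoter share differed by −0.82 points (−3.01 to 1.83). The difference from all other regions was −2.35 points with a promoter of 5 kb and −2.54 among regions of weak q values, and both intervals then included 0.

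Inside genes, the summits were often in exons that code for protein. This count was chosen after the data were seen. The summit lay in an exon at 173 members (26.9%) and in coding sequence at 133 (20.7%, 17.7 to 23.9), in 127 genes. Coding sequence held the summit of 6.57% of all other regions, of 6.68% of those called only in P0.5 epithelium, of 12.6% of those only in P0.5 fibers and of 4.14% of the mirrored E14.5 group. The members were higher by 14.1 points (11.1 to 17.4), 13.98 (10.98 to 17.3), 8.04 (5.06 to 11.4) and 16.5 (13.6 to 19.8). The regions called in all 4 lists had as many summits in exons (28.2%), but only 7.57% in coding sequence, and 63.9% of them lay at promoters. The last exon of a gene held 10.7% of the member summits and 3.81% of the others. Without the chromosome 17 stretch, the coding share was 22.0%. With a q value under 0.001 in every calling list, the difference from P0.5 fibers only was 2.87 points, with an interval that included 0. Among regions of weak q values it was 4.29 points (−0.73 to 11.1). Among these, the members were 6.95 points above all other regions and 7.81 above P0.5 epithelium only.

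**Figure D3:**
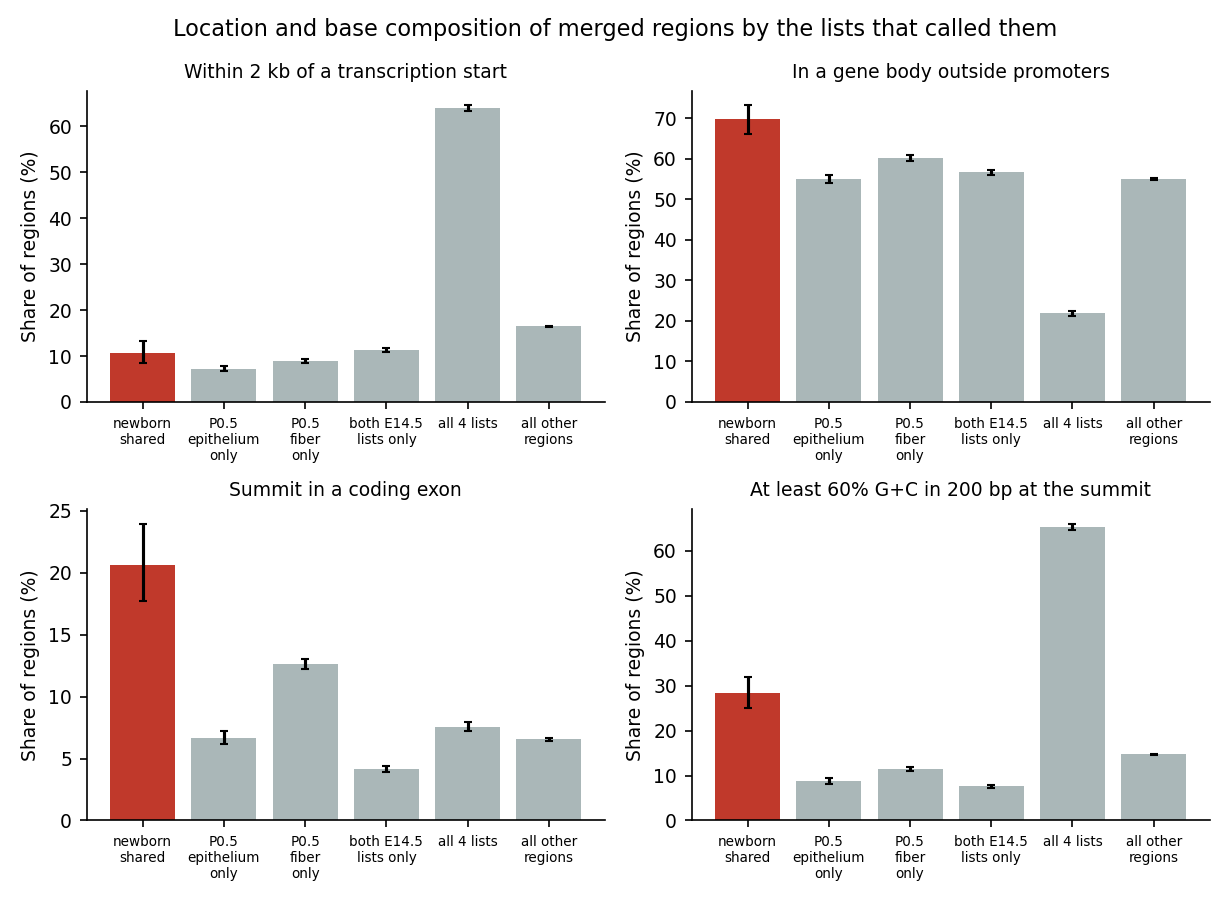
Share of regions (%) by location of the region or its summit and by G+C content, with bars for the newborn shared regions (red) and the 5 comparison groups (grey) and 95% Wilson intervals as error bars. Among the groups, the red bar is the highest for gene bodies (69.7%) and for coding exons (20.7%). At promoters (10.6%) it is far below that of the regions called in all 4 lists.

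Base composition also differed. In the 200 bp at the summit, G+C had a median of 56.5% in the members, 53.0% in all other regions, 53.0% in regions called only in P0.5 epithelium and 54.5% in those only in P0.5 fibers. At least 60% G+C was found at 183 members (28.4%) and at 14.7% of other regions, a difference of 13.7 points (10.3 to 17.3). The coding share was therefore also counted within bands of G+C. Between 55 and 60% G+C it was 19.2% (46 of 239) against 9.75%, higher by 9.50 points (4.99 to 14.97). Between 60 and 65% it was 39.7% (62 of 156) against 22.0%, higher by 17.8 points (10.4 to 25.6). Against regions called only in P0.5 epithelium, the differences in these bands were 8.73 points (4.05 to 14.3) and 13.1 points (4.96 to 21.6). Under 50% G+C the members differed from all other regions by 0.726 points (−0.891 to 9.07) and between 50 and 55% by 2.61 points (−0.032 to 7.20), and at 65% or more by 35.7 points (17.8 to 53.1). The interval against P0.5 epithelium only included 0 in these 3 bands.

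Against regions called only in P0.5 fibers, the differences in the same bands were 3.12 points (−1.45 to 8.64) and 0.885 points (−6.72 to 8.96), and the interval included 0 in every band. The part of base composition in the coding share was not tested.

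**Figure D4:**
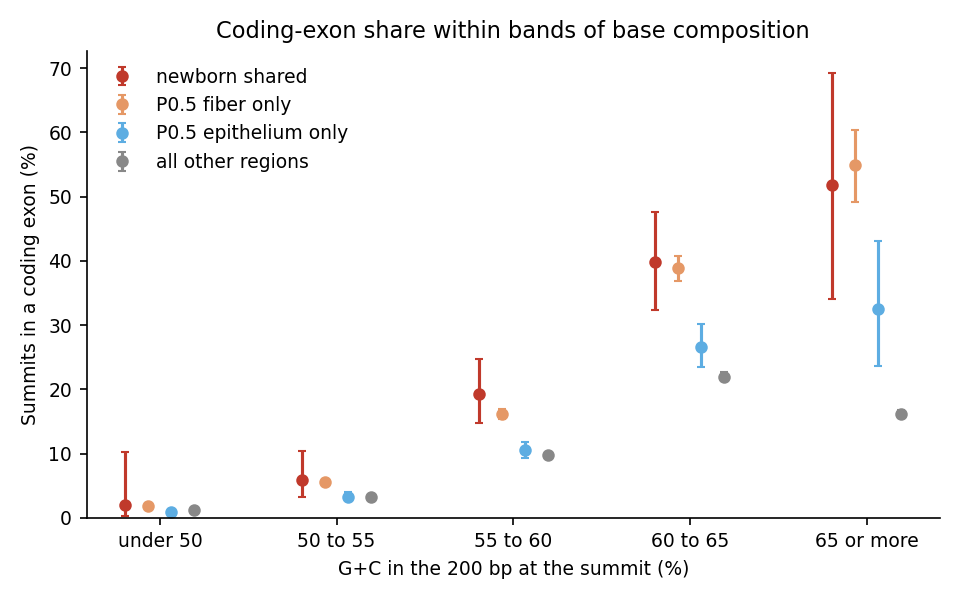
Share of summits in a coding exon (%) within 5 bands of G+C content in the 200 bp at the summit, for the members, all other regions, and regions called only in P0.5 epithelium or only in P0.5 fibers, with 95% intervals. The members reach 39.7% between 60 and 65% G+C, close to the fiber-only regions at 38.9% and above all other regions at 22.0%.

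Of the 10 genes with a member in the gene lists, 3 had its summit in coding sequence. Notch1 encodes a receptor through which cells signal to their neighbours, and its member in a coding exon had 9 fragments in epithelium and 7 in fibers. Maml1 encodes the coactivator that the cleaved receptor binds in the nucleus, and its coding member had 8 and 7. Of 15 Notch pathway genes, these 2 had a member, where 1.98% of all protein-coding genes had one. Nfic, of the nuclear factor I family of transcription factors, also had its member in coding sequence (chr10:81420499-81420858), with 9 and 7 fragments.

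In the other listed genes the members lay mostly in introns. Nfix had 9 and 6 fragments (chr8:84714672-84714980) and Rxra, which encodes a retinoid X receptor, 8 and 7 (chr2:27702156-27702631). Rora, an orphan nuclear receptor that acts on the circadian clock, had 9 and 8 (chr9:68667997-68668131). Itgb4, the β4 integrin of hemidesmosomes, had 7 and 8 (chr11:115983264-115983560), and Vwf, which encodes von Willebrand factor of endothelial cells, had 9 and 7 (chr6:125635152-125635477). Ptpn11, which encodes the phosphatase Shp2 downstream of FGF receptors, had 9 and 7 in an exon outside the coding sequence (chr5:121132560-121132937). All 10 had at most 10 fragments in epithelium and at most 8 in fibers, and 0 of them had a q value under 0.001 in both.

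Counted over gene lists, few genes had a member. Of 21000 protein-coding genes, 416 (1.98%) had a member at the promoter or in the gene body, and 0.486% had one with a q value under 0.001 in both lists. Including members whose nearest gene lay within 50 kb, the share was 2.29%. Members were found at 2 of 15 Notch pathway genes, at 3 of 36 lens regulators (Nfic, Nfix and Rxra), at 2 of 20 clock genes, at 1 of 29 genes of FGF and ERK signalling and at 1 of 23 genes of the lens capsule and matrix. They were found at 0 of 28 genes of fiber membrane, junction and cytoskeleton, 0 of 31 of autophagy and organelle loss, 0 of 20 glucocorticoid response genes, 0 of 23 immediate early genes, 0 of 33 of TGF-β and BMP signalling, 0 of 37 of Wnt and Hippo signalling, 0 of 25 of hypoxia and glucose metabolism and 0 of 24 of oxidative stress defence. Members were found at 1 of 14 endothelial and pericyte markers (Vwf), and at 0 of 12 markers of macrophages and leukocytes, 0 of 10 of erythroid cells, 0 of 10 of retina, 0 of 8 of pigmented and ciliary cells and 0 of 9 of cornea and epidermis. Some P0.5 peak was found in epithelium and fibers at 13 and 11 of the 14 endothelial and pericyte markers, at 5 and 3 of the 12 markers of macrophages and leukocytes, at 3 and 3 of the 10 of erythroid cells and at 7 and 9 of the 10 of retina. It was found at 5 and 4 of the 8 markers of pigmented and ciliary cells and at 6 and 3 of the 9 of cornea and epidermis. Of all protein-coding genes, 72.0% had such a peak in epithelium and 70.7% in fibers, so a peak alone does not mark a cell type. The part of such other cells in the newborn calls was not tested.

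At promoters, 18 members passed the q value of 0.001 in both lists. Their summits had 9 to 12 fragments in epithelium and 9 to 15 in fibers. The highest in epithelium was the member in an intron of Mmrn2, which encodes an endothelial matrix protein, also in the promoter of Sncg, which encodes γ-synuclein, with 12 fragments there and 9 in fibers (chr14:34375771-34376328). The highest in fibers was the member at Mir3057, which lies in Apba3, with 10 and 15 (chr10:81270931-81271207).

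The member at Panx3, the gene of a pannexin channel, was 42 bp from a start site and had 11 and 9 fragments (chr9:37669033-37669314), with the nearest E14.5 peak 11518 bp away. The member at Osgin1, a gene induced by oxidative stress, had 11 and 11 (chr8:119437485-119437657), with an E14.5 peak 200 bp away. Amh, the gene of anti-Müllerian hormone, Mdga1, Sstr3, which encodes a somatostatin receptor, and 1700096J18Rik each had 11 and 9. Rbfox1, which encodes a splicing factor, and Efcab6 each had 10 and 9, and Adap1 had 10 and 10. Sppl2c, which encodes an intramembrane protease, had 9 and 10, Glp1r had 9 and 12, and Mir343 had 9 and 13. Mir6952 and 4930592I03Rik each had 9 and 9. The pseudogene Ceacam-ps1 had 11 and 13, and the predicted gene Gm9732 had 11 and 12, the latter with the nearest E14.5 peak 649842 bp away.

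Of 439 genes with a member at the promoter or in the gene body, 396 had 1, 34 had 2 and 9 had at least 3. Besides the 4 genes of the chromosome 17 stretch, the 9 included Cd244a, Adgrb2 and Efcab6. Adgrb2 encodes an adhesion receptor coupled to G proteins, with 3 members of 7 to 9 fragments in epithelium and 8 to 9 in fibers. Cd244a encodes a receptor of natural killer cells, with 4 members of 7 to 12 and 8 to 10. The 3 members of Efcab6 had 10 to 13 and 7 to 9. Ticrr, which encodes a regulator of the start of DNA replication, had a pair of members in coding sequence, with 12 and 10 fragments in epithelium and 9 and 9 in fibers, 13954 and 15042 bp from the nearest E14.5 peak.

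Letters known from the binding sites of lens and other transcription factors were sought in the 200 bp at each summit on both strands, and 18 motifs were searched. AP-1, the dimers of Fos and Jun, was searched as TGANTCA. Tead, the partner of Yap in growth control, was searched as GGAATG. For the Maf factors, which drive crystallin genes, the letters were TGCTGA. Sox factors, of which some act with Pax6 in the lens, were searched as ACAATG. Ets factors, which act downstream of ERK signalling, were searched as CCGGAA. The GC-rich letters GGGCGG stood for the Sp and Klf factors. Nrf2, the factor of the antioxidant response, was searched as TGACNNNGC. Pitx3, a factor of the lens epithelium, belongs to the Pitx family with the letters TAATCC. Meis, a family of homeodomain factors, was searched as TGACAG. Foxe3, another epithelial factor, belongs to the Fox family with the letters TGTTTAC. The E-box of basic helix-loop-helix factors was searched as CACGTG. Runx factors were searched with the letters TGTGGT. The Gata factors, of which Gata3 acts in fibers, were searched as AGATAA. Nuclear receptors were searched by a single copy of AGGTCA. The longer consensus sequences of CTCF, NF1, the glucocorticoid receptor and heat shock factor were searched in the same way. The letters of AP-1, Nrf2 and Meis can share bases. A match is a description of the letters, not a bound site.

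Gata, Sox and Pitx letters were less frequent in the members than in all other regions. Over all merged regions, Gata letters were found in 6.17%, Sox letters in 10.9% and Pitx letters in 5.65%. In the members, Gata letters stood in 2.17%, lower than in all other regions (difference −4.01 points, −4.89 to −2.56), Sox letters in 6.52% (−4.37, −6.04 to −2.19) and Pitx letters in 2.48% (−3.17, −4.13 to −1.66). CTCF letters (8.66% of all merged regions) stood in 6.37% (−2.30, −3.94 to −0.14) and AP-1 letters (6.61%) in 4.50% (−2.11, −3.47 to −0.22). Without the chromosome 17 stretch, the intervals of CTCF and AP-1 included 0. Runx letters (15.6% of all merged regions) were more frequent in the members, at 18.9% (3.39, 0.55 to 6.60). The intervals of the other 12 motifs included 0. Only Gata, Sox and Pitx letters differed in windows of 100, 200 and 400 bp alike. In the other windows, the interval of Runx letters included 0, as did that of AP-1 letters, and CTCF letters turned to 0.42 points (−1.94 to 3.22) at 400 bp. Letters of nuclear receptors were more frequent at 400 bp (6.10, 2.61 to 9.81), Fox letters less frequent at 100 bp (−0.86, −0.9998 to −0.14) and at 400 bp (−1.90, −2.89 to −0.35), and Maf letters less frequent at 100 bp (−2.98, −5.16 to −0.33) and without the chromosome 17 stretch (−3.94, −6.93 to −0.53). Among the 166 members with a q value under 0.001 in both P0.5 lists, only the interval of Gata letters did not include 0.

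**Figure D5:**
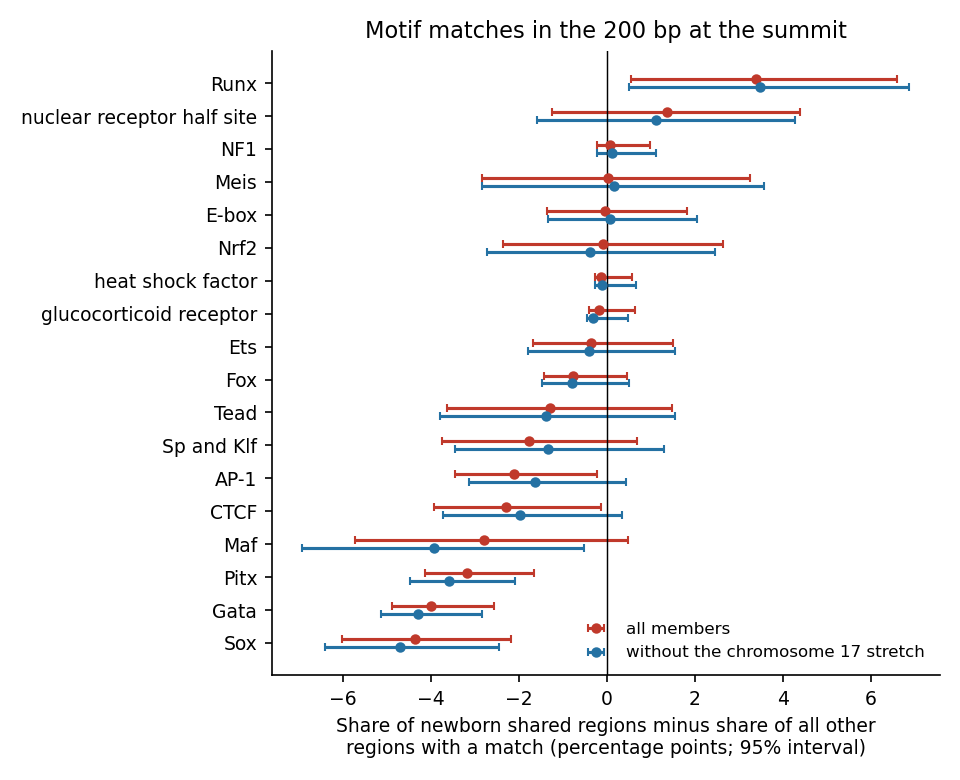
Difference in the share of regions with a motif match in the 200 bp at the summit between the members and all other regions, in percentage points with 95% Newcombe intervals, with and without the chromosome 17 stretch. Gata, Sox and Pitx letters lie below 0 in both series, and Runx letters lie above 0.

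Against regions called only in P0.5 fibers, fewer motifs differed than in the plot of motif differences. Gata letters were again less frequent in the members (−2.52 points, −3.44 to −1.06), while Sp and Klf letters (3.87, 1.87 to 6.35), CTCF letters (1.81, 0.14 to 3.98) and Ets letters (1.36, 0.01 to 3.23) were more frequent. Without the chromosome 17 stretch, the interval of Ets letters included 0 (1.295, −0.09 to 3.27) and Pitx letters were less frequent (−1.78, −2.69 to −0.25). Against regions called only in P0.5 epithelium, 7 of 18 differed, Sp and Klf and Runx letters upward and those of AP-1, Tead, Sox, Pitx and Gata downward, of which AP-1 was lost without the stretch. Against the mirrored E14.5 group, 8 of 18 differed. Sp and Klf letters were more frequent, and those of AP-1, Maf, Sox, CTCF, Pitx, Fox and Gata less frequent. The CTCF difference was there −6.99 points (−8.69 to −4.78), opposite in direction to that from fibers only. Base composition was not matched in these comparisons, and G+C was higher in the members, as given above. Its part in the differences was not tested.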

How the data were processed

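Chromatin accessibility of CD1 mouse lens epithelium and fibers at E14.5 and P0.5 was measured by ATAC-seq, with 2 libraries in each of 4 groups. By the submitters' processing notes and the methods of the study, reads were trimmed (Trim Galore 0.4.1), mapped to mm10 (Bowtie2 2.3.3.1), filtered (SAMtools 1.2), freed of duplicates (Picard 2.1.1) and called with MACS2 2.1 at a q value of 0.05. The deposited lists are named as pooled, 1 for each group, and the methods do not describe the pooling. The authors deposited, for each peak, the −log10 p and −log10 q values at the summit. The deposited fold enrichment is the ratio of fragments to background, with 1 added to both. The deposited score is a whole number that MACS2 made from the −log10 q value and was not used here. A total count of reads per library is not in the lists used here, and only the background above stands for depth. 

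Fragments at a summit were recovered from the steps of fold enrichment, within a tolerance of 0.02 steps, and the p values recomputed from 1 background matched those deposited within 0.01 on the log10 scale for peaks with a −log10 p of up to 50. Lists were merged at 10 bp with bedtools 2.31.1. Positions were compared with 45756 curated RefSeq transcripts of 26180 genes on GRCm38, read with pysam 0.24.0 and samtools 1.23.1, in the order promoter (2 kb), gene body, distal (50 kb) and intergenic. Tables were handled with pandas 2.3.3 under Python 3.11.15 with numpy 2.4.6, intervals computed with scipy 1.17.1 (Wilson for shares, Newcombe for differences, 95%) and plots drawn with matplotlib 3.10.9. The methods state that the study removed blacklisted regions from its merged peaks, whereas the ENCODE blacklist was not used here. With 1 list per group there was no test across replicates. The steps were tested on simulated data.

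The members, gene lists and motifs were chosen with earlier results of these data known. The genes named were those at the 20 members with the best worse-of-2 ranks, at promoter members with a q value under 0.001 in both P0.5 lists, with at least 3 members, on a list and with a member, and at the 3 widest and the weakest members, where 57 tied and only Nfix is named. A few members that meet the rule are not reported here or are counted without a name. Alternatives were other q values, equal list sizes, merge distances, overlaps, promoter widths, gene sets, peak positions and motif windows. The stretch of chromosome 17, coding exons, last exons, G+C bands and copies of summits were chosen after the data were seen.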

Additional observations from a re-analysis of the deposited data

Results flagged for a closer look

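Newborn shared regions also occurred on sequences that were outside the comparisons. Of 121 merged regions on the Y chromosome and unplaced scaffolds, 4 (3.31%) were called in both P0.5 lists and in neither E14.5 list, against 0.348% of the merged regions on chromosomes 1 to 19 and X. Of the 4, 3 lay on a single unplaced scaffold and 1 on Y, so that they are not independent and no interval is given. Their summits held 18 to 26 fragments in epithelium and 11 to 20 in fibers, against medians of 9 and 8 in the members. They drew attention as a signal in data that no comparison used, and no explanation was tested.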

How the results depend on the processing

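No paired analysis was possible because each group is 1 pooled list that carries no replicate, and no replicate could be left out for the same reason. Of 59 alternatives, 40 left the direction and the call, or a count within 1.5 times. The number of members was 644, and it was 419 with a q value under 0.01, 210 with a q value under 0.001 in every list, 166 with that value in both P0.5 lists, 1263 with lists of equal size, 365 with no E14.5 peak within 1000 bp and 255 with an overlap of 50%.

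The promoter share changed its call or its direction in several settings. Its difference from all other regions was −2.35 points with a promoter of 5 kb and −2.54 among regions whose best q value was 0.001 or above, with intervals that included 0. Among these weak regions, it was −0.807 against regions called only in P0.5 epithelium, −1.40 against those only in P0.5 fibers and −9.23 against the mirrored E14.5 group, the first 2 of them reversed. Against fibers only, it was 1.88 with a promoter of 1 kb, with an interval above 0. Against the E14.5 group, it reversed to 3.06 with 5 kb and to 0.0431 with a q value under 0.001.

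The coding-exon share stayed above all other regions in every setting (6.95 to 17.1 points) and above P0.5 epithelium only (7.81 to 15.3 points). Its difference from P0.5 fibers only fell to 2.87 points (−2.66 to 9.72) with a q value under 0.001 and to 4.29 (−0.730 to 11.1) among weak regions. With a q value under 0.001 in both P0.5 lists, 1 of 18 motifs (Gata) differed in place of 6, listed genes with a member fell from 10 to 0, and the difference in repeats rose to 3.80 points (0.908 to 8.64). The causes were not tested. The settings that left out the chromosome 17 stretch, and all those for coding exons, were chosen after the data were seen.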
